A study of Mus musculus with 24 samples.

Results

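The effect of an antisense oligonucleotide (ASO) against the tRNA fragment 5'tRF Glu(CTC) was examined in mouse islet cells that had received no palmitate. The comparison was chosen by the sample labels: 6 libraries labelled αGlu, BSA were set against 6 labelled Ctr, BSA, which are 12 of the 24 libraries of the series. Pancreatic islets of wild-type mice were dispersed to single cells, the cells were transfected with the αGlu ASO or with a control ASO (Ctr), and they were then kept with bovine serum albumin (BSA), the carrier of the fatty acid, or with palmitate (PA). Every library of this comparison therefore carried an ASO and BSA, and a group of untransfected cells was not analysed here. Total RNA was purified, poly(A) mRNA libraries that keep the strand were sequenced, and the batch label places 3 libraries of each group in batch 1 and 3 in batch 2. The libraries of a group come from independent experiments, and by the study's methods the groups of a replicate were made from cells of the same animal. The labels do not say which libraries share an animal, although the numbers run through Ctr BSA, αGlu BSA, Ctr PA and αGlu PA in turn. The RNA is that of a mixed islet cell suspension, so a lower level of a gene can come from fewer cells of the type that makes it or from less RNA of that gene per cell, and bulk RNA cannot tell these apart.

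Cells cut mature tRNAs into fragments under stress, and the 5' pieces, such as 5'tRF Glu(CTC), bind proteins that handle mRNA. Cells also carry sensors of foreign or misplaced RNA, such as PKR, MDA5 and RIG-I, whose activation leads to type I interferon and, through factors such as STAT2 and IRF9, to the transcription of interferon-stimulated genes. Islets hold endocrine cells together with a few resident macrophages, endothelial cells, fibroblasts and a sheath of Schwann cells and nerve endings, and each of these contributes RNA to a dispersed preparation.

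The ASO and the stretch of the fragment it was designed against are shown first because the comparison turns on them. The capitals in the target mark the bases that pair with the ASO, bases 2 to 21 of the 21 shown, and both are written from 5' to 3' in DNA letters.
αGlu ASO: TAACCACTAGACCACCAGGG
5'tRF Glu(CTC) target: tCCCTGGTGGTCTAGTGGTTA
The 20 bases of the ASO were also searched for, as perfect pairing, in 141767 mouse transcripts. The longest run of the target found in the sense of a transcript was 13 bases, in transcripts of 11 genes. Only Retreg2 and Tspan14 of these 11 were expressed highly enough to be tested, with log2 differences between αGlu and Ctr of 0.02 ± 0.05 (SE) and -0.02 ± 0.11. Runs of at least 12 bases occurred in 71 genes, 31 of them tested, and their log2 differences ranged from -0.87 to 0.07 with a median of -0.00 and 0 genes called changed. Over all genes tested 0.785% were called by the rule given below, so 0 of 31 does not set these genes apart. The lowest of the 31 was Plxna4, a semaphorin receptor gene, with an unadjusted p below 0.05 but less than a 2-fold difference.

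Mean sequencing depth did not differ detectably between the groups, though it varied more among the Ctr libraries, of which S1 was the lowest. The Ctr BSA libraries held 18214719 to 35001979 counts and the αGlu BSA libraries 24608893 to 28110837 (two-sided exact permutation test, p = 0.790, n = 6 and 6). Spearman's correlation between BSA libraries across genes lay between 0.945 and 0.960. Ctr library S1 stood apart: its 10 most abundant genes took 33.5% of the counts, against 16.3% to 20.3% in the other Ctr BSA libraries. Insulin mRNA (Ins1 and Ins2 together) took 7.46% to 10.7% of the counts in Ctr and 7.55% to 11.4% in αGlu.

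Across the transcriptome the ASO groups were close to each other without palmitate. Of 41549 genes in the table, 15916 were tested, and 98.7% of those differed by less than 2-fold, a log2 difference of 1. Among the 11570 genes with a mean of at least 100 counts, 99.8% differed by less than that, and the 95% confidence interval of a log2 difference reached, at the median, 0.165 to either side. A gene was called when it differed more than 2-fold with an unadjusted p below 0.05. By that rule 125 genes (0.785% of those tested) were called, 23 higher (0.145%) and 102 lower (0.641%) in αGlu. No gene passed an adjusted p of 0.05 in edgeR's quasi-likelihood test (0%), and the smallest adjusted p was 0.114, for the GTPase gene Irgm2. The adjusted p of a called gene that is described without one was 0.948 or higher after rounding. At an unadjusted p below 0.05 there were 461 genes (2.9%), 181 higher (1.14%) and 280 lower (1.76%), which is a smaller share than the 5% that this threshold lets through by itself. With each run of 4 consecutively numbered libraries taken as 1 experiment (a replicate block, which the labels do not state and which was chosen after seeing the data), 9 genes passed an adjusted p of 0.05, among them Irgm2, Irf7, Stat2, Eif2ak2, Ifi27, Irf9, Parp9 and Bst2. In that blocked fit the smallest adjusted p was 0.0233 and 111 genes were called, 92 of them among the 125. DESeq2 without the block passed 8 genes at an adjusted p of 0.05: Irf7, Stat2, Irgm2, Trim25, Ifi27, Eif2ak2, Kcna1 and S100b. The called genes were lowly expressed, with a median of 29.9 counts a library for those called higher and 26.1 for those called lower, against 440 over all genes tested.

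**Figure D1:**
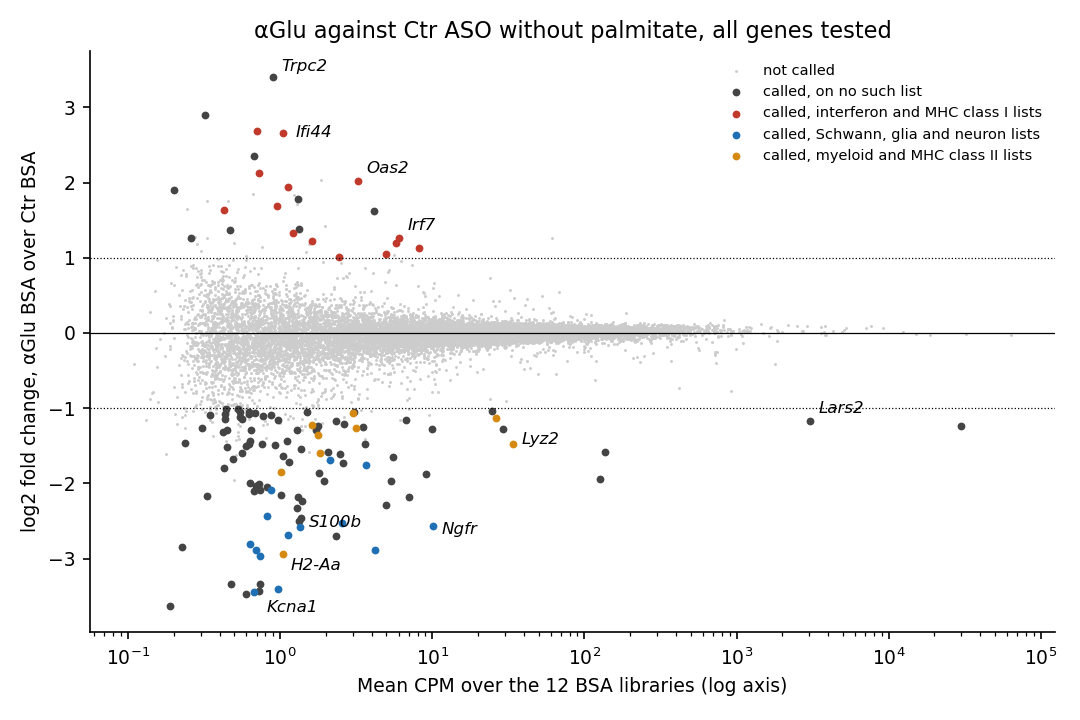
Log2 fold change of αGlu BSA over Ctr BSA (vertical axis) against the mean level over the 12 BSA libraries in counts per 1000000 counts of the scaled library (CPM, log axis) for the 15916 genes tested. Large dots are the 125 called genes, coloured by the gene lists that hold them, and the dotted lines mark a 2-fold difference; most called genes lie below 10 CPM, and a few rRNA and small RNA genes lie far to the right.

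The genes called in each direction belonged to different groups. Of the 23 called higher, 13 stood on the lists of interferon-response genes described next and 1 more was the MHC class I gene H2-Q6. Of the 102 called lower, 0 stood on an interferon list. Those interferon lists together held 118 of the 15916 genes tested. Of the 102 called lower, 14 were genes of Schwann cells, enteric glia or neurons, 9 were macrophage or MHC class II genes, and 11 were rRNA or small RNA genes. All 23 higher genes and 99 of the 102 lower genes had the same sign in both batches, where 49.8% of all genes did. That agreement partly follows from how genes are called, since a gene with opposite batch values seldom reaches a pooled difference of this size. The difference between batches in the ASO effect passed an adjusted p of 0.05 for 0 genes (0%) and an unadjusted p below 0.05 for 345 (2.17%).

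Sensors of foreign nucleic acid differed by less than 2-fold. Of 12 sensor and adaptor genes tested, 4 (Eif2ak2, Ifih1, Ddx58 and Dhx58) had an unadjusted p below 0.05, all 4 higher in αGlu, and 0 were called, with a median log2 difference of 0.28 against 0.00 over all genes. Eif2ak2 encodes PKR, the kinase that binds double-stranded RNA and halts translation. It measured 24.3, 28.4 and 33.5 CPM (lowest, median and highest library) in Ctr and 33.9, 37.8 and 48.1 CPM in αGlu. Each αGlu library thus lay above each Ctr library, a pattern found for 6 genes (0.0377%) of all those tested. As many, 6 genes (0.0377%), separated in the opposite direction, and the number expected by chance was not computed. The log2 difference was 0.46 ± 0.09 (SE), with an adjusted p of 0.282 in edgeR's quasi-likelihood test.

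Ifih1, which encodes the long double-stranded RNA sensor MDA5, was 0.42 ± 0.10 higher on the log2 scale (adjusted p = 0.446), from a median of 22.7 CPM in Ctr to 28.7 CPM in αGlu. For Ddx58, encoding RIG-I, which reads RNA ends with a triphosphate, the log2 difference was 0.26 ± 0.10. Dhx58, the LGP2 gene that tunes the other RIG-I-like receptors, differed by 0.67 ± 0.25 and lost its p below 0.05 when αGlu library S6 was left out. The endosomal sensor gene Tlr3 (0.17 ± 0.13) and the adaptor gene Mavs (-0.06 ± 0.06), through which RIG-I and MDA5 signal, did not pass. The intervals of both, -0.09 to 0.44 and -0.18 to 0.07, leave out a 2-fold difference.

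The list medians were -0.06 for interferons and their receptors and 0.02 for the signalling factors, against 0.00 over all genes. Of 12 listed interferon and receptor genes 6 were expressed highly enough to be tested, and none of the 6 had a p below 0.05. The tested genes include the receptor genes Ifnar1, Ifnar2 and Ifngr1. The rest of the 12 were below the filter, so the list median says nothing of them. Ifnar1, a chain of the type I interferon receptor, measured 45.6 to 57.4 CPM in Ctr and 47.8 to 58.2 CPM in αGlu, a log2 difference of -0.01 ± 0.05. Among 17 signalling factors 5 had a p below 0.05, all higher in αGlu, among them Irf7, Stat2, Irf9 and Usp18. Irf7, Stat2 and Irf9 are transcription factors that carry the interferon signal to DNA, and Usp18 is the enzyme that removes ISG15 and brakes the receptor. Irf7, the factor that amplifies type I interferon production and the only one of the 17 past 2-fold, measured 2.02, 3.47 and 5.14 CPM in Ctr and 4.26, 6.03 and 14.8 CPM in αGlu. Its groups touched only where αGlu library S22 (4.26 CPM) fell among the highest Ctr libraries, and its log2 difference of 1.26 ± 0.27 (adjusted p = 0.282) lay between 1.16 and 1.39 whichever library was left out.

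Stat2 and Irf9, subunits of the complex ISGF3, differed by 0.49 ± 0.10 (adjusted p = 0.282) and 0.57 ± 0.14 (adjusted p = 0.446). Usp18 differed by 0.36 ± 0.10 (adjusted p = 0.458). In all 3 of these genes αGlu libraries S2 and S6 were the highest of the 12. The Stat2 level there was 86.8 and 90.2 CPM, against 57.6 CPM in S10, the remaining αGlu library of batch 1, and 43.04 to 51.4 CPM in those of batch 2. Stat2 in Ctr measured 46.1 to 53.9 CPM in batch 1 and 33.97 to 41.5 CPM in batch 2, so within each batch the groups did not overlap.

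The OAS family had the highest median of the interferon lists, a log2 difference of 0.87 over 9 genes tested. The active enzymes of this family make 2',5'-oligoadenylates when they meet double-stranded RNA. Of the 9 genes 6 had a p below 0.05, 3 were called higher (Oas2, Oas1g and Oas3) and 0 lower. Oas2 measured 2.58, 2.50 and 1.28 CPM in the Ctr libraries of batch 1 and 0.553, 0.368 and 0.919 CPM in those of batch 2. The αGlu libraries held 9.44, 9.35 and 0.767 CPM in batch 1 and 4.10, 4.41 and 3.02 CPM in batch 2. Only αGlu library S10, at 0.767 CPM, was as low as the Ctr libraries, and without it the log2 difference of 2.02 ± 0.48 (adjusted p = 0.446) became 2.29.

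Oas1g measured 0.368 to 1.18 CPM in Ctr and 1.32 to 4.19 CPM in αGlu without overlap (log2 difference 1.22 ± 0.34, adjusted p = 0.5). Oas3, the family member that senses long RNA, measured 0.0413, 0.125 and 0.495 CPM in Ctr and 0.244, 0.616 and 1.12 CPM in αGlu, and differed by 1.64 ± 0.51 (adjusted p = 0.822). The related Oasl2 was just below the 2-fold limit, with medians of 8.34 and 13.9 CPM and a log2 difference of 1.00 ± 0.25 (adjusted p = 0.446). Oas1a (0.87 ± 0.30) and Oas1b (0.80 ± 0.23, adjusted p = 0.57) also had a p below 0.05, and Oas1b is annotated as a polymorphic pseudogene. Oas1a and Oas1g are near-identical copies on chromosome 5, at 120896256 to 120907521 and 120876142 to 120887613 in GRCm38, and how their shared reads were split is uncertain.

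The IFIT proteins bind the 5' end of RNAs that lack the cell's own cap modification. Each of the 6 IFIT genes had a positive log2 difference, with a median of 0.39, but only Ifit1 passed and was called. Ifit1 measured 3.68, 4.26 and 6.70 CPM in Ctr and 6.07, 7.37 and 24.1 CPM in αGlu, a log2 difference of 1.14 ± 0.29 (adjusted p = 0.446). The top of its αGlu range came again from S6 (24.1 CPM) and S2 (16.8 CPM), while the other 4 αGlu libraries lay between 6.07 and 7.39 CPM. Ifit3 did not pass, at 0.83 ± 0.41, and differed by 0.43 without S6.

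**Figure D2:**
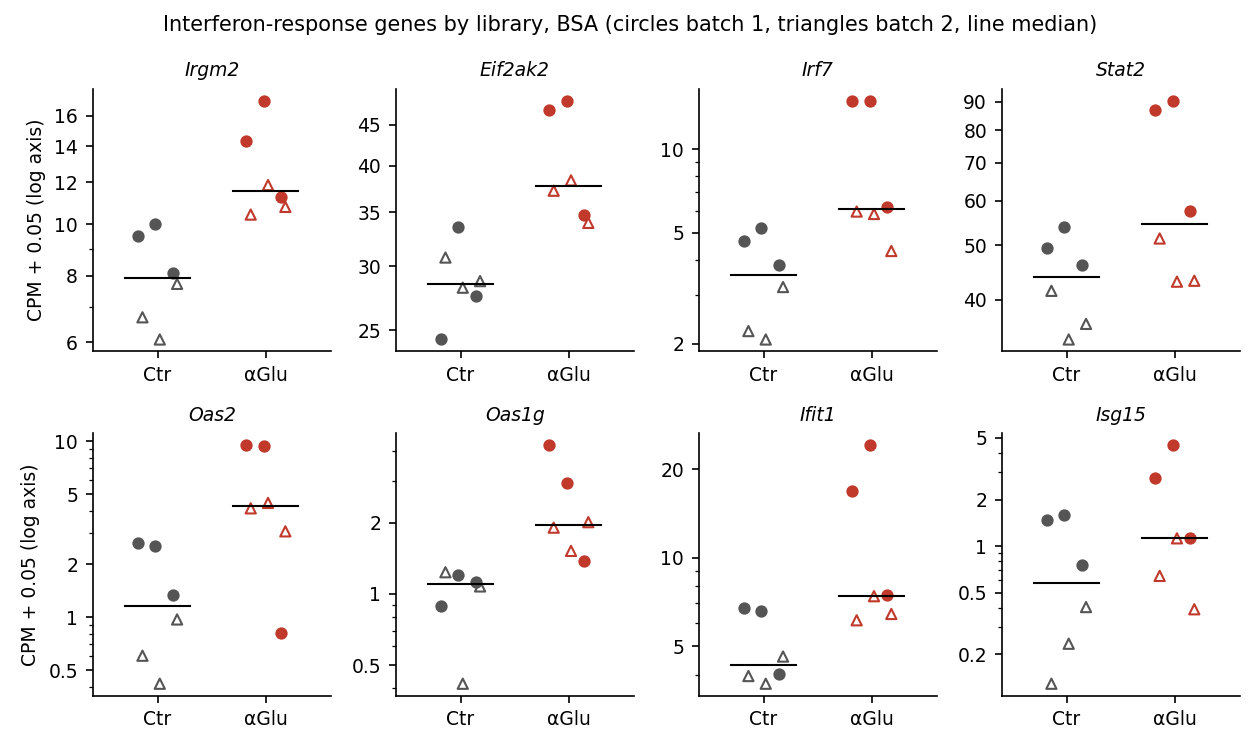
Level of 8 interferon-response genes in the 12 BSA libraries, as CPM plus 0.05 on a log axis, with circles for batch 1, triangles for batch 2 and a line at each group's median. The αGlu libraries of Irgm2, Eif2ak2 and Oas1g lie above all Ctr libraries, and the highest circles of most genes are the same αGlu libraries of batch 1, S2 and S6.

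Interferon-inducible GTPases coat the vacuoles of intracellular microbes and mark them for destruction. Of 18 tested, 8 had a p below 0.05 and 2 (Tgtp1 and Gvin1) were called, all higher in αGlu, with a list median of 0.43. Irgm2, the gene of lowest p in the transcriptome, measured 6.02, 7.86 and 9.95 CPM in Ctr and 10.4, 11.5 and 16.995 CPM in αGlu with no overlap. Its log2 difference of 0.66 ± 0.12 (adjusted p = 0.114) was nearly the same in batch 1 (0.63) and batch 2 (0.69), and its unadjusted p stayed below 0.05 whichever library was left out. The annotated span of Irgm2 on chromosome 11, 58199618 to 58222782 in GRCm38, contains most of the neighbouring GTPase gene Igtp, so reads of one can be counted for the other, and Igtp itself differed by 0.49 ± 0.13 (adjusted p = 0.487).

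Gbp7 (0.32 ± 0.10, adjusted p = 0.732) and Irgm1 (0.29 ± 0.10) also had a p below 0.05 at a smaller difference. Tgtp1 measured 0 to 0.88 CPM in Ctr and 0.394 to 3.39 CPM in αGlu, a log2 difference of 1.68 ± 0.64. It too has a near-identical copy, Tgtp2. Gvin1, the gene of a very large GTPase, was at 0 CPM in αGlu library S10 and in Ctr libraries S17 and S21, and the remaining αGlu libraries held 0.936 to 3.97 CPM (log2 difference 1.94 ± 0.74).

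ISG15 is a ubiquitin-like protein that interferon-treated cells attach to newly made proteins. In its conjugation list 5 of 13 genes had a p below 0.05, all higher, and Isg15 was the only one called. Isg15 was rare, at 0.079 to 1.54 CPM in Ctr and 0.341 to 4.44 CPM in αGlu (log2 difference 1.33 ± 0.57), and it lost its p below 0.05 without any one of 4 libraries. Trim25, a ubiquitin and ISG15 ligase that also serves RIG-I, was abundant and steady. It measured 87.3, 95.4 and 97.7 CPM in Ctr and 104, 108 and 123 CPM in αGlu without overlap, a log2 difference of only 0.25 ± 0.05 (adjusted p = 0.282). Rnf213, a giant ubiquitin ligase, differed by 0.27 ± 0.09 (adjusted p = 0.865).

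Among 44 further interferon-stimulated effectors, 17 had a p below 0.05 and 5 were called, all higher in αGlu, with a median of 0.22. Ifi44, whose protein restrains viral replication, measured 0 to 0.88 CPM in Ctr and 0.468 to 4.02 CPM in αGlu, with medians of 0.188 and 1.01 CPM (log2 difference 2.66 ± 0.66, adjusted p = 0.446). Apol9b and Apol9a, near-identical apolipoprotein L genes, differed by 2.68 ± 0.71 (adjusted p = 0.446) and 2.12 ± 0.75. Apol9b was at 0 CPM in all 3 Ctr libraries of batch 2 and at 0.128 to 0.556 CPM in the αGlu libraries of that batch. Xaf1, a promoter of apoptosis, differed by 1.05 ± 0.27 (adjusted p = 0.446), and Rtp4, a receptor chaperone induced by interferon, by 1.19 ± 0.39 (adjusted p = 0.974). With the replicate block Xaf1 was at 0.95, under the 2-fold limit.

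More abundant effectors differed by less than 2-fold. Ifi27, a mitochondrial protein gene, went from a median of 18.3 CPM in Ctr to 26.7 CPM in αGlu (log2 difference 0.73 ± 0.17, adjusted p = 0.446). Bst2, the tether that holds budding viruses to the cell, went from 3.53 to 4.73 CPM (0.81 ± 0.21, adjusted p = 0.446). Parp9 differed by 0.43 ± 0.10 (adjusted p = 0.446) and Adar, the enzyme that edits double-stranded RNA, by 0.24 ± 0.06 (adjusted p = 0.446).

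Taken over the 7 lists from sensors to effectors, without ligands and receptors, 118 genes were tested. Of these 101 were higher in αGlu by sign, 46 had a p below 0.05, 13 were called, and every one of the 46 was higher. Of all genes tested, 50.4% were higher by sign, 1.14% were higher with a p below 0.05 and 0.145% were called higher. The median log2 difference was 0.26 over the 118 and 0.00 over all genes. The lists were drawn with earlier results of these libraries known, so the counts describe these genes and give no independent evidence of their direction. The summed level of the 118 genes was 3852, 3757 and 3395 CPM in the Ctr libraries of batch 1 and 4708, 4653 and 3550 CPM in the αGlu libraries of that batch. In batch 2 it was 3402, 3661 and 3433 CPM in Ctr and 3719, 4033 and 3726 CPM in αGlu, so the groups did not overlap there, and in batch 1 αGlu library S10 lay inside the Ctr range. Each of the 6 αGlu libraries was above the Ctr library numbered just before it, S10 (3550 CPM) above S9 (3395 CPM) included. With the replicate block, 54 of the 118 had a p below 0.05, all higher, and 13 were called. The median was 0.39 in batch 1 and 0.13 in batch 2. Fitted without αGlu library S10, the counts were 55 with a p below 0.05 and 17 called, and 9 genes passed an adjusted p of 0.05 (Oasl2, Oas2, Irf7, Stat2, Irgm2, Ifi27, Irf9, Parp9 and Eif2ak2). Over all omissions of 1 library the called count ranged from 8 to 17. Of the 23 genes called higher, on these lists or not, 11 had their highest αGlu value in S6 and 4 in S2. The highest was S18 for 4, S10 for 2 and S22 for 2. A fit without both S2 and S6 was not run.

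Interferon-stimulated genes are switched on through a short promoter element that ISGF3 and IRF proteins bind, and its core letters GAAANNGAAA, or TTTCNNTTTC on the opposite strand, were looked for from 250 bases before to 50 bases after each RefSeq transcription start, with overlapping matches counted. Windows of 40 bases around the matches of 8 called or non-overlapping genes are printed on the strand of the gene (RefSeq promoters, build GRCm38.p6), with the matched letters in capitals, so that the element can be seen beside the levels above.
Irgm2, chr11:58214898-58214937, plus strand: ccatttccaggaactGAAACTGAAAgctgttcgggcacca
Tgtp1, chr11:48992299-48992338, minus strand: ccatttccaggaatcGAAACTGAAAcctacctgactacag
Isg15, chr4:156200866-156200905, minus strand: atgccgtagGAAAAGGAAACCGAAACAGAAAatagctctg
Oas1g, chr5:120887614-120887653, minus strand: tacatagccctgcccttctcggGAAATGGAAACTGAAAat
Oas3, chr5:120777710-120777749, minus strand: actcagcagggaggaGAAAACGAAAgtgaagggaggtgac
Ifit1, chr19:34640780-34640819, plus strand: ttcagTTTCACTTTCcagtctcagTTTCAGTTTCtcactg
Apol9a, chr15:77411112-77411151, minus strand: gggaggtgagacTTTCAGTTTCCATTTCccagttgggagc
Apol9b, chr15:77729023-77729062, plus strand: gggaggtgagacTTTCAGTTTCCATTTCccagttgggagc
The windows of Apol9a and Apol9b are identical, and Isg15 holds 3 overlapping matches. Of 27025 genes with a promoter window 1079 (3.99%) held a match, as did 445 of the 12087 tested genes with one (3.68%). Among the interferon lists 45 of 91 genes with a window held it (49.5%). The share was 55.9% (19 of 34) in those with a p below 0.05 and 45.6% (26 of 57) in those without. Of the called genes with a window, 7 of 14 called higher and 4 of 65 called lower held a match. A match describes these letters only and is no evidence of binding.

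MHC class I genes present peptides to T cells and respond to interferon as well. Of 21 tested, 18 were higher in αGlu by sign with a median of 0.12, and H2-Q6 alone had a p below 0.05. It measured 0.644, 1.496 and 2.37 CPM in Ctr and 1.95, 3.24 and 4.76 CPM in αGlu (log2 difference 1.01 ± 0.30, adjusted p = 0.626), and it belongs to a cluster of near-identical H2-Q genes. With the replicate block its difference was 0.94, under the 2-fold limit, and 3 genes of the list had a p below 0.05. The immunoproteasome gene Psmb8 (0.19 ± 0.15) and the peptide transporter gene Tap1 (0.14 ± 0.10) did not pass.

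The remaining genes called higher had no common list. Trpc2, a cation channel gene, was at 0 CPM in 4 of 6 Ctr libraries and at most 0.601 CPM in the other two, and at 1.52 to 2.35 CPM in 5 of 6 αGlu libraries with S10 at 0 (log2 difference 3.40 ± 0.90, adjusted p = 0.446). The long intergenic RNA Gm15608 measured 0.0825 to 0.414 CPM in Ctr and 0.397 to 1.28 CPM in αGlu (1.36 ± 0.35, adjusted p = 0.446). Ugt1a6b, from a cluster of glucuronosyltransferase genes that share exons, differed by 2.90 ± 0.86 (adjusted p = 0.651). Spon1 and Aspn, genes of extracellular matrix proteins, were called higher through αGlu library S18 alone, at 28.7 and 7.62 CPM against at most 4.87 and 1.95 CPM in every other BSA library. With the replicate block their log2 differences were 0.82 and 0.81, and neither had a p below 0.05. Without S18 the log2 difference of Spon1 was -0.39 and that of Aspn 0.18. That library also had the highest summed level of fibroblast genes, 3674 CPM, and Col3a1, a fibrillar collagen gene, at 441 CPM against 3.80 to 55.3 CPM elsewhere in BSA; whether fibroblast content set these values was not tested.

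Genes of Schwann cells and enteric glia were lower in αGlu. Of 35 tested, 33 were lower by sign, 17 had a p below 0.05, all lower, and 11 were called. Of all 15916 genes tested, 7890 were lower by sign, 1.76% were lower with a p below 0.05 and 0.641% were called lower. The list had a median log2 difference of -0.55 against 0.00 over all genes. S100b, a calcium-binding protein gene that defines glia, measured 2.32, 1.21 and 4.01 CPM in the Ctr libraries of batch 1 and 1.54, 0.046 and 4.60 CPM in those of batch 2. In αGlu it measured 0.176, 0.361 and 0.0697 CPM in batch 1 and 1.38, 0.238 and 0.341 CPM in batch 2. The groups did not overlap in batch 1, while in batch 2 Ctr library S17, at 0.046 CPM, was below every αGlu library. The log2 difference was -2.57 ± 0.63 (adjusted p = 0.446).

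The same shape recurred through the list: high values in Ctr libraries S9 and S21, middling ones in the other Ctr libraries except S17, which had almost none. Ngfr, the neurotrophin receptor of Schwann cells, measured 33.4 and 43.03 CPM in S9 and S21, 6.27 to 9.08 CPM in S1, S5 and S13, and 0.735 CPM in S17, against 0.811 to 10.3 CPM in αGlu (log2 difference -2.57 ± 0.75, adjusted p = 0.626). Cdh19, a cadherin of the Schwann lineage, measured 15.1 and 20.1 CPM in S9 and S21, 0.368 to 3.001 CPM in the other Ctr libraries and 0.253 to 3.39 CPM in αGlu (-2.89 ± 0.75, adjusted p = 0.446). Sox10 and Sox2, the transcription factors of the lineage, differed by -2.52 ± 0.80 (adjusted p = 0.849) and -2.97 ± 0.84 (adjusted p = 0.542). Kcna1, a potassium channel gene of myelinated axons, measured 0.046, 1.16 and 2.69 CPM in Ctr and 0, 0.0393 and 0.592 CPM in αGlu (-3.44 ± 0.81, adjusted p = 0.446).

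Other genes of the list followed. Gdnf, a growth factor for enteric neurons, differed by -2.69 ± 0.69 (adjusted p = 0.446), Gap43, a growth cone protein gene, by -1.76 ± 0.46 (adjusted p = 0.446), and Gfap, the glial filament gene, by -2.89 ± 0.96. The more abundant Lgi4, a myelination signal, differed by less (-0.89 ± 0.21, adjusted p = 0.446). Several genes called lower that stood on no list had their highest values in the same libraries, such as Apod, a lipocalin (17.3 and 29.6 CPM in S9 and S21, 17.2 CPM in S1, 3.68 to 8.92 CPM in the other Ctr libraries and 3.86 to 9.92 CPM in αGlu; log2 difference -1.28 ± 0.32, adjusted p = 0.446), the adhesion gene Chl1 (-1.97 ± 0.50, adjusted p = 0.446) and the metalloproteinase gene Mmp17 (-1.97 ± 0.52, adjusted p = 0.446).

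Neuronal genes were mixed. Of 11 tested, 5 had a p below 0.05, all lower, and 3 were called, with a list median of -0.09. Prph, which encodes the filament peripherin of peripheral neurons, measured 7.93 CPM in Ctr library S9, 1.59 CPM in S21, 0.0395 to 0.644 CPM in the other Ctr libraries and 0 to 0.244 CPM in αGlu (log2 difference -3.41 ± 0.85, adjusted p = 0.446). Hand2, an autonomic transcription factor, differed by -1.69 ± 0.46 (adjusted p = 0.487). Nos1, the neuronal nitric oxide synthase gene, was lower by less (-0.82 ± 0.26, adjusted p = 0.881).

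**Figure D3:**
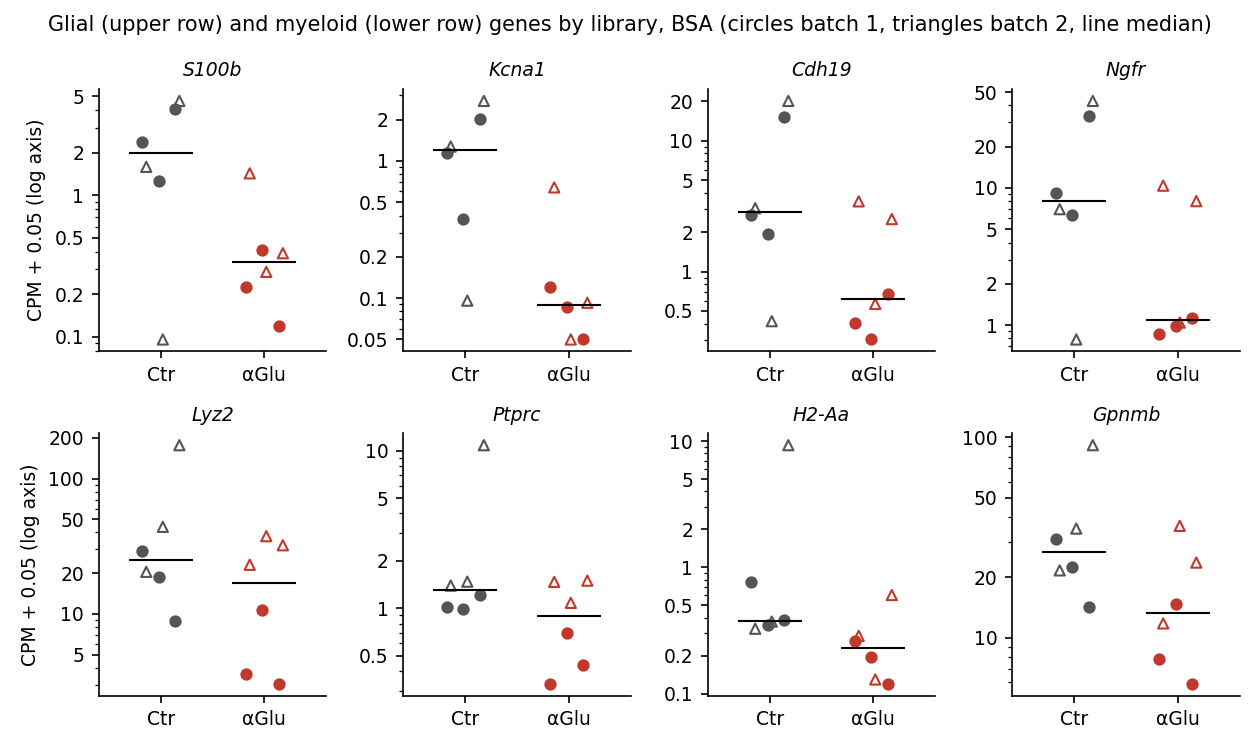
Level of 4 glial genes (upper row) and 4 myeloid or MHC class II genes (lower row) in the 12 BSA libraries, as CPM plus 0.05 on a log axis, with circles for batch 1, triangles for batch 2 and a line at each group's median. In the upper row the highest Ctr points are S9 and S21 and the lowest is S17; in the lower row Ctr library S21 stands above every other library.

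The glial difference depended on those Ctr libraries in size. Ctr libraries S9 and S21 were the top pair for 54 of the 102 genes called lower and for all 14 of the glial and neuronal ones. Without both, S100b kept an unadjusted p below 0.05 (-1.78) while Ngfr did not (-1.18), the glial list had 2 genes called lower and a median of -0.16, and without S1 as well 1 gene and -0.10. Without either one alone, 11 genes of the list were still called, with medians of -0.44 (S9 left out) and -0.30 (S21 left out). The mean log2 CPM of the list was 2.19, 2.01 and 3.16 in Ctr and 1.39, 1.36 and 1.16 in αGlu in batch 1, with no overlap, and 2.04, 1.14 and 3.34 in Ctr and 2.09, 1.36 and 1.92 in αGlu in batch 2, with overlap. Whether the number of Schwann cells or nerve fibres carried into each dish set these values was not tested.

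Macrophage genes were lower in αGlu, and which of them were called depended on 1 control library. Of 32 tested, 29 were lower by sign, 8 had a p below 0.05, all lower, and 7 were called, with a median of -0.91. Over all genes tested, 1.76% were lower with a p below 0.05 and 0.641% were called lower. Lyz2, the lysozyme gene of macrophages, measured 177 CPM in Ctr library S21, 8.80 to 43.99 CPM in the other Ctr libraries and 2.998 to 37.5 CPM in αGlu (log2 difference -1.47 ± 0.63). Ptprc, encoding the leukocyte antigen CD45, measured 10.8 CPM in S21, 0.935 to 1.42 CPM in the rest of Ctr and 0.282 to 1.45 CPM in αGlu (-1.59 ± 0.60). S21 was the highest Ctr library for all 9 of the myeloid and MHC class II genes called lower. Without S21, 0 of the 32 were called, the median was -0.26, and Lyz2 differed by -0.62. The list was also lower in batch 1, which does not hold S21, with a median of -0.98 against -0.85 in batch 2, and fitted alone batch 1 had 1 gene called lower. Its mean log2 CPM in batch 1 was 1.32, 1.00 and 0.35 in Ctr and -0.15, 0.69 and -0.31 in αGlu, so the groups overlapped where αGlu library S6 lay above Ctr library S9. In batch 2 it was 1.24, 1.77 and 3.03 in Ctr and 1.29, 1.70 and 1.55 in αGlu.

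Further myeloid genes behaved alike. Adgre1, encoding F4/80 (-1.36 ± 0.63), Cybb, the catalytic subunit of the phagocyte oxidase (-1.26 ± 0.45), Gpnmb (-1.13 ± 0.44) and Csf2rb, a cytokine receptor subunit (-1.85 ± 0.81), were called lower and each lost its p below 0.05 without S21, as Csf2rb also did with the replicate block (-1.57). Among further macrophage markers, C1qa measured 51.3 to 113 CPM in Ctr and 60.6 to 127 CPM in αGlu (0.08 ± 0.12), and Csf1r 4.95 to 13.1 and 4.76 to 7.58 CPM (-0.31 ± 0.28). Cd68 measured 8.25 to 20.7 CPM in Ctr, highest in S21, and 5.67 to 10.7 CPM in αGlu. Over omissions of 1 library its log2 difference lay between -0.62 and -0.22. Its p was below 0.05 in 9 of 12 omissions, but not without S21. The mannose receptor gene Mrc1 (-0.99 ± 0.78) and the cytokine genes Il1b (-0.02 ± 0.25) and Tnf (-0.17 ± 0.47) did not pass, with intervals of -2.61 to 0.62, -0.53 to 0.48 and -1.15 to 0.80. The 5 tested MHC class II genes were all lower by sign with a median of -1.01 and 2 called, H2-Aa and Cd74. H2-Aa measured 9.23 CPM in S21 and at most 0.709 CPM in any other BSA library (-2.94 ± 0.91, adjusted p = 0.767), and without S21 0 of the list were called. With the replicate block Cd74 was at -0.89, under the 2-fold limit, and only H2-Aa was called.

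Ribosomal and small RNA made up a further 11 of the genes called lower, and all 11 had their highest Ctr value in library S1. CT010467.1, an rRNA gene, measured 186849 CPM in S1 and 7221 to 34374 CPM in all other BSA libraries (log2 difference -1.23 ± 0.45). Rn7s1 and Rn7s2, near-identical genes of the signal recognition particle RNA, measured 1027 and 1038 CPM in S1 and at most 110 CPM elsewhere in BSA. Without S1 their log2 differences were -0.36 and 0.02, and none of CT010467.1, Rn7s1, Rn7s2 and Lars2, an enzyme gene with a stretch of rRNA-like sequence, had a p below 0.05. With the replicate block CT010467.1 (-0.97), Rn7s2 (-0.996) and Lars2 (-0.90) did not have a p below 0.05. Leaving all rRNA and small RNA genes out of the table gave 113 called genes, 23 higher and 90 lower. The 3 lower genes whose batches differed in sign, n-R5-8s1, Rmrp_1 and Lars2, were all of this group and had positive log2 differences in batch 2.

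Genes whose 6 αGlu libraries lay outside all 6 Ctr libraries were few. Above were Irgm2, Eif2ak2, Oas1g, Trim25, the outer mitochondrial membrane gene Mtx1 (0.23 ± 0.09) and the zinc finger gene Zbed5 (0.62 ± 0.18, adjusted p = 0.542). Below were 6 genes (0.0377%). They included Naip1, a sensor of bacterial secretion proteins, Tnfsf13b, the B-cell survival cytokine BAFF, and Proz, a vitamin K-dependent plasma protein. The others were Ddx56, an RNA helicase, Nrxn3, a neuronal adhesion protein, and the non-coding Gm28784. Naip1 measured 0.743, 0.971 and 1.68 CPM in Ctr and 0.349, 0.509 and 0.596 CPM in αGlu (log2 difference -1.11 ± 0.31, adjusted p = 0.5). Tnfsf13b measured 2.65, 3.10 and 3.59 CPM in Ctr and 1.58, 2.12 and 2.27 CPM in αGlu (-0.61 ± 0.21). Both held their p below 0.05 whichever library was left out.

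The endocrine cells themselves differed little. Of 31 β-cell genes 0 were called and 1 had a p below 0.05, against 0.785% and 2.9% of all genes tested. The log2 differences ranged from -0.03 to 0.13 with a median of 0.06. Ins1 and Ins2 differed by -0.01 ± 0.09 and -0.03 ± 0.10, with intervals of -0.20 to 0.17 and -0.23 to 0.17. The β-cell transcription factor genes Pdx1 (0.08 ± 0.07) and Mafa (0.02 ± 0.09), the glucose transporter gene Slc2a2 (0.11 ± 0.12) and Ucn3, a marker of mature β-cells (0.01 ± 0.08), did not pass either. Ffar1, the fatty-acid receptor gene through which palmitate acts on insulin secretion, was the 1 with a p below 0.05, at 0.12 ± 0.06, and lost it in 7 of 12 omissions of a library. Gcg, the glucagon gene (-0.02 ± 0.15), and Sst, the somatostatin gene (-0.03 ± 0.16), had intervals of -0.32 to 0.29 and -0.36 to 0.30.

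Stress and death genes named by the study's question gave no called gene in BSA, where 0.785% of all genes tested were called and 2.9% had a p below 0.05. In the list of ER stress and the integrated stress response 0 of 32 genes had a p below 0.05, with log2 differences of -0.27 to 0.09. Ddit3, which encodes CHOP, measured 36.2 to 63.7 CPM in Ctr and 33.2 to 60.7 CPM in αGlu (-0.12 ± 0.13 for Ddit3_1, as the table names it). Among 19 BCL2 family and caspase genes 0 had a p below 0.05. The survival genes Bcl2l1 (-0.09 ± 0.08) and Bcl2 (-0.24 ± 0.20) had intervals of -0.24 to 0.07 and -0.66 to 0.18.

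Proteins that cut, load or bind tRNA fragments were measured through 18 tested genes. Of these genes 0 had a p below 0.05, against 2.9% of all genes tested, and the log2 differences ranged from -0.09 to 0.09. They include Ang, the ribonuclease angiogenin that cuts tRNAs (-0.01 ± 0.13), Dicer1 (0.09 ± 0.06), and the RNA-binding protein genes Hnrnpa3 (0.05 ± 0.06), Hnrnpa2b1 (0.05 ± 0.05), Hnrnpab (-0.04 ± 0.07), Dazap1 (-0.02 ± 0.07) and Msi2 (-0.04 ± 0.07). Cytochrome c oxidase genes (36 tested, median -0.03) and fatty-acid oxidation genes (29 tested, median 0.02) also had 0 genes with a p below 0.05. The mRNA library reports the messages of these proteins and not the fragment, which the poly(A) selection leaves out.

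The other cell types of a pancreas preparation gave 0 called genes, where 0.785% of all genes tested were called. The acinar list had 33 of 35 genes lower by sign and a median of -0.26, but its summed level ran from 9931 to 42752 CPM in the BSA libraries of batch 1 and from 825 to 1157 CPM in those of batch 2, and its median was -0.48 in batch 1 and 0.04 in batch 2. Ductal (18 genes, median 0.05), endothelial (20, median 0.06) and fibroblast genes (30, median 0.05) had medians near 0. Chemokines (15 tested), IL-1 and NF-kB genes (24) and complement genes (14) also held 0 genes with a p below 0.05, against 2.9% of all genes tested.

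**Figure D4:**
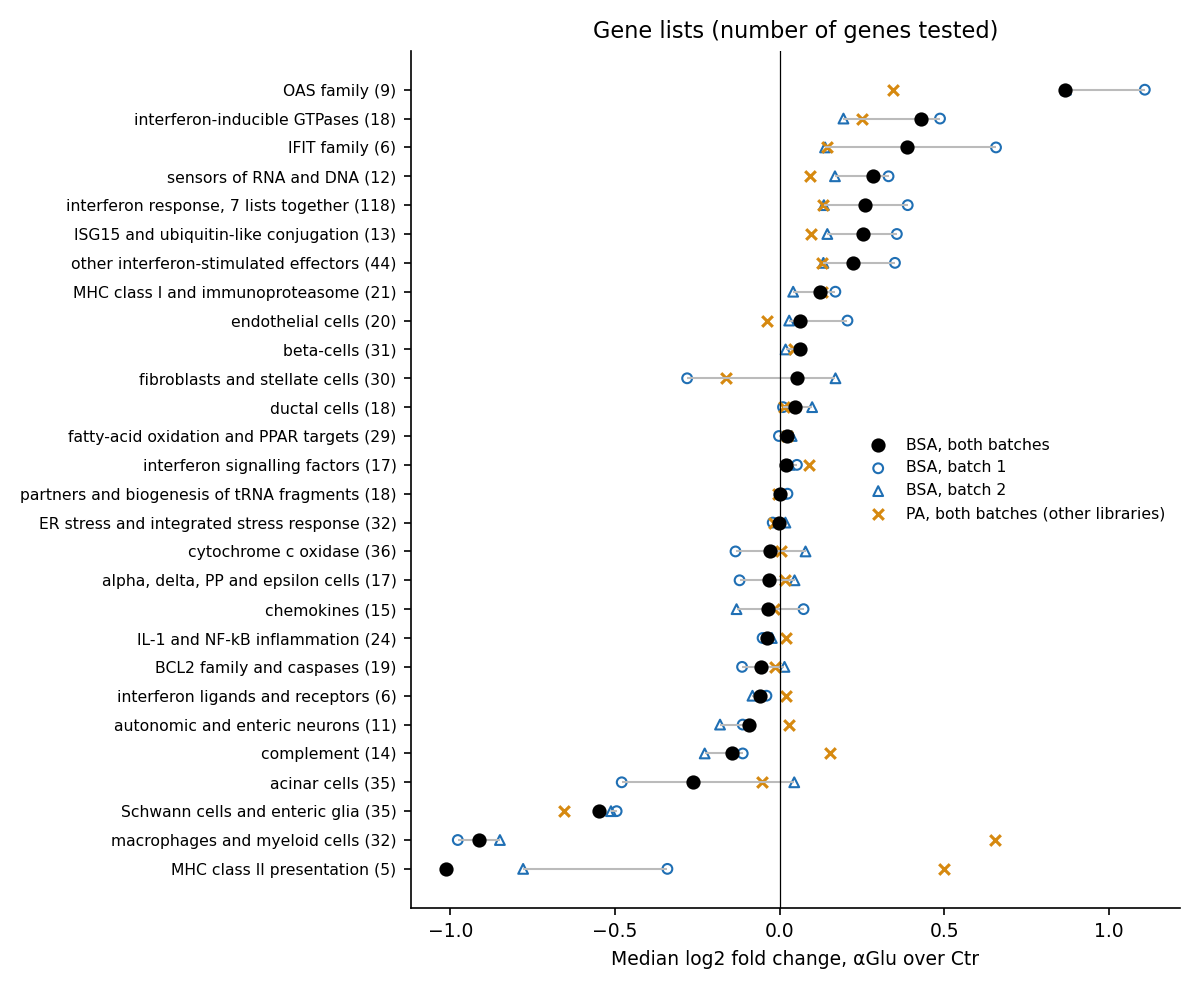
Median log2 fold change of αGlu over Ctr for each gene list with at least 5 tested genes (number tested in brackets): black dots for all 12 BSA libraries, open circles and triangles for batches 1 and 2, and crosses for the 12 PA libraries. The 7 interferon-response lists lie to the right in BSA and in PA, the signalling factors at only 0.02 in BSA. Interferon ligands and receptors lie at -0.06 in BSA and 0.02 in PA. Glial genes lie to the left in both, and the macrophage and MHC class II lists to the left in BSA and to the right in PA.

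The palmitate-treated libraries give the same ASO contrast in other libraries, with 27 genes called higher (0.17%) and 123 lower (0.773%). No gene differed between BSA and PA in its ASO effect at an adjusted p of 0.05 (0%), and 332 (2.09%) did at an unadjusted p below 0.05, so the values are set side by side without a call. Of the 23 genes called higher in BSA, 20 were higher by sign in PA, 5 were called higher there and 0 lower. Of the 102 called lower, 76 were lower by sign in PA, 43 were called lower and 1 was called higher. Over all genes the sign matched in 49.4%. Since the groups of a replicate share an animal by the study's methods, the PA libraries are other libraries but not independent animals.

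By group, the interferon genes had the same sign at a smaller size. The 118 genes had a median of 0.26 in BSA and 0.13 in PA, with 96 higher by sign in PA. Irf7 differed by 0.95 ± 0.27 in PA (adjusted p = 0.504), Oas2 by 1.61 ± 0.50 (adjusted p = 0.699) and Apol9b by 4.02 ± 1.00 (adjusted p = 0.354). Irf7 measured 10.3 and 8.95 CPM in αGlu PA libraries S4 and S8. It measured 2.26 to 3.74 CPM in the other αGlu PA libraries and 1.83 to 3.72 CPM in Ctr PA. In batch 2 PA the mean log2 CPM of the OAS list was 0.84, 0.84 and 0.58 in Ctr and 1.21, 1.16 and 1.02 in αGlu. That of the ISG15 list was lower in αGlu there, at 2.44, 2.44 and 2.52 against 2.54, 2.60 and 2.65 in Ctr. Ifit1 differed by 0.13 ± 0.29 in PA and Oas1g by 0.02 ± 0.34; the difference between BSA and PA had an unadjusted p below 0.05 for both and an adjusted p of 0.999 and 0.999. Glial genes were lower in both, with a median of -0.55 in BSA and -0.66 in PA. S100b differed by -2.38 ± 0.65 (adjusted p = 0.443) in PA, Gfap by -4.86 ± 1.17 (adjusted p = 0.304) and Hand2 by -2.51 ± 0.52 (adjusted p = 0.252), but Prph by 0.68 ± 0.96.

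Myeloid genes had opposite signs. Their median was -0.91 in BSA and 0.65 in PA, where 28 of 32 were higher by sign. The mean log2 CPM of the list in PA was -0.11, -0.02 and -0.87 in Ctr and 0.54, 1.56 and -1.66 in αGlu in batch 1. In batch 2 it was 0.13, 0.58 and -0.19 in Ctr and 0.001, 0.36 and 0.48 in αGlu. The groups thus overlapped in both batches, and αGlu PA library S8 (1.56) was the highest. Cybb, lower in BSA, was the 1 gene called in the opposite direction, at 1.06 ± 0.50 in PA (adjusted p = 0.993), and its difference between the treatments had an unadjusted p below 0.05 and an adjusted p of 0.999. Lyz2 differed by 0.81 ± 0.75 in PA (adjusted p = 0.993). On the BSA side the calls of these genes, though not their sign in batch 1, depended on Ctr library S21.

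**Figure D5:**
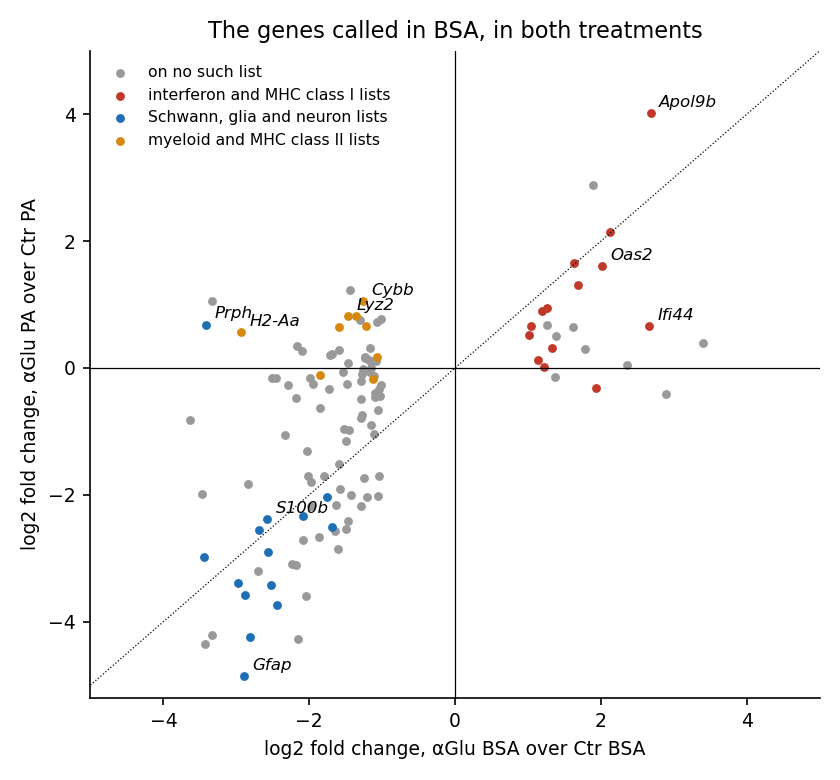
Log2 fold change of αGlu over Ctr in BSA (horizontal) and in PA (vertical) for the 125 genes called in BSA, coloured by gene list, with the dotted line at equal values. Interferon genes lie mostly in the upper right and glial genes in the lower left, and the myeloid and MHC class II genes, lower in BSA, lie near or above 0 in PA.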

How the data were processed

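Poly(A) mRNA libraries of dispersed mouse islet cells were sequenced, and the authors deposited 1 table of raw counts per gene for 24 libraries. The counts, total exon reads per gene, came from QIAGEN's RNA-seq Analysis Portal; the submitters' processing notes name GRCm38 (aligner settings: not given in the sources used here). RPKM, TPM and CPM columns beside them were not used, and empty cells were read as 0. Groups and batches came from the sample labels. Low genes were removed with edgeR's filter (15916 of 41549 genes kept, 99.95% of counts), libraries were scaled by TMM, and edgeR's quasi-likelihood test (4.0.16, R 4.3.3) was fitted to all 24 libraries with group and batch as terms, with Benjamini-Hochberg adjustment over all genes tested. A gene was called past 2-fold at an unadjusted p below 0.05. ASO effects in each batch and in PA came from the same kind of fit. Levels are CPM of the TMM-scaled library totals, SE is the standard error of the log2 fold change, and limma 3.58.1, DESeq2 1.42.0, Python 3.11.15, SciPy 1.17.1 and matplotlib 3.10.9 were also used. The fit was tested on simulated data with known changes.

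The members and the 28 gene lists were chosen with earlier results of these data known. Named genes are, by rule, the 10 called genes of lowest p in each direction with a mean of at least 10 counts and the same sign in both batches, up to 5 genes of lowest p and the defining genes of each list, genes the study measured itself, and genes past an adjusted p in DESeq2 or without 1 library. Other called genes, the genes whose groups do not overlap and those that pair with the ASO were named after their values were seen. P-values measure the spread between these libraries. Each αGlu BSA library deviated from the mean of its group and batch together with the Ctr BSA library numbered before it, with correlations of 0.122 to 0.446 over 11570 genes in the 6 pairs, and 4 of the 6 Ctr libraries correlated best with that partner; the pairing is assumed from the numbers and the shared animals that the study's methods state, and was fitted as a replicate block of 4 libraries in place of batch. Counting strand and the split of reads between near-identical or overlapping genes are not known. Alternatives tried were DESeq2, upper-quartile scaling, no filter and a stricter one, no batch term, the 12 BSA libraries alone, each batch alone, other fold limits and each library left out; the replicate block, leaving out rRNA and small RNA genes, and Ctr libraries S9 and S21 with or without S1, were chosen after seeing the data. RefSeq promoter windows and the GENCODE M21 annotation, both of GRCm38, gave sequences and positions.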

Additional observations from a re-analysis of the deposited data

Results flagged for a closer look

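Among 322 groups of 6 values examined (the named genes, the summed lists and the library measures, in Ctr BSA and in αGlu BSA), 20 had 1 library so far from the others that its gap took up more of the group's range than Dixon's critical value allows, where chance gives about 1 in 20. No gene's ASO effect differed between batches, or between BSA and PA, at an adjusted p of 0.05. The values are log2 CPM unless stated.

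Ctr BSA library S21 was the highest for Ptprc (3.44), Csf1r (3.72), H2-Aa (3.22) and Cd74 (3.68), and for the summed MHC class II level (6.13 on the log2 scale of summed CPM). In Ctr BSA library S1, Rn7s1 (10.005) and Rn7s2 (10.02) were the highest, Hnrnpa3 (7.58) and the summed level of the tRNA fragment partners (11.09, log2 of summed CPM) the lowest, and the 10 most abundant genes took 33.5% of the counts.

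αGlu BSA library S10 was the lowest for Gvin1, Trpc2 and Csf2rb, each listed at 0 counts and at -3.73 after the prior count, and for Ifnar2 (4.15). Ctr BSA library S17 was the lowest for Oas1g (-1.18) and S100b (-3.05), and Ctr BSA library S9 for Mavs (3.91). αGlu BSA library S14 was the highest for Kcna1 (-0.58) and the lowest for Ccl2 (-0.28), and αGlu BSA library S2 the lowest for Ddx56 (4.57).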

How the results depend on the processing

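The count of called genes was 125 and stayed within 1.5 times of that under DESeq2 (130), upper-quartile scaling (129), a stricter filter (91), no batch term (106), the 12 BSA libraries alone (96), either batch alone (152 and 91) and without rRNA and small RNA genes (113). It was 64 without Ctr libraries S9 and S21 and 50 without S1 as well, 587 with no filter on low counts, 205 with a fold limit of 1.5 and 461 with none. With no filter 181 were higher and 406 lower, and without S1, S9 and S21 24 were higher and 26 lower. Leaving out 1 library gave 98 to 169 called genes and 0 to 9 genes past an adjusted p of 0.05, the 9 without αGlu library S10; DESeq2 passed 8. Of the 125 genes, 125 were also called with upper-quartile scaling, 116 by DESeq2, 42 without S9 and S21 and 23 without S1 as well. Over single omissions the log2 difference ranged from -0.39 (without αGlu library S18) to 2.11 for Spon1 and from -1.85 to 0.023 (without Ctr library S1) for Rn7s2. Signs also turned for Gap43 (0.020), Lars2 (0.15) and Rn7s2 (0.016) without S1, S9 and S21, and for Lars2 in batch 2 alone (0.18); the cause was not tested. The labels give no pairs of libraries. With runs of 4 consecutive libraries as a replicate block, 111 genes were called (23 higher, 88 lower), 9 passed an adjusted p of 0.05, and genes with an unadjusted p below 0.05 went from 461 to 628. Under that block p-values below 0.05 appeared for 3 β-cell, 2 ductal and 3 fatty-acid oxidation genes, where 1, 0 and 0 had one before. Depth limits the called genes, which had a median of 26.5 counts a library against 440 over all genes tested.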
